A study of Rattus norvegicus with 6 samples.

Results

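Heparan sulfate and chondroitin sulfate are long sugar chains carried by proteoglycans on the cell surface and in the matrix around neurons. The genes described here encode the enzymes that build, sulfate and trim these chains, together with their close relatives among the carbohydrate sulfotransferases. They were chosen by symbol: every gene beginning with Chst, Hs2st, Hs3st, Hs6st, Ndst or Extl, and Ust, Sulf1, Sulf2, Ext1 and Ext2, which gave 36 of the 25629 genes counted. All 36 are accounted for below, in 15 classes of nuclei from the rat nucleus accumbens, a ventral part of the striatum.

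Chain building follows a known order. Ext1 and Ext2 polymerise the heparan sulfate backbone, the Extl proteins start or shape it, and the Ndst enzymes place the first sulfates on it. Hs2st1 then sulfates the uronic acid, the Hs6st enzymes sulfate glucosamine, and the Hs3st enzymes add a late and rare sulfate that creates binding sites for particular proteins. Sulf1 and Sulf2 work outside the cell, where they remove sulfate from finished heparan sulfate chains. On chondroitin and dermatan chains, Chst11, Chst12, Chst13, Chst14, Chst3 and Chst7 add single sulfates at different positions, Chst15 adds another to make the form with a pair of sulfates called chondroitin sulfate E, and Ust sulfates the uronic acid. Chst1, Chst2, Chst4, Chst5, Chst9 and Chst10 act mainly on other glycans, among them keratan sulfate and N-linked sugars. In brain, these chains bind growth factors and guidance cues, and chondroitin sulfate proteoglycans form the perineuronal nets around some neurons.

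The nuclei came from adult Sprague-Dawley rats, 90 to 120 days old, all of which had self-administered heroin. Sessions ran for 7 days on a fixed-ratio 1 schedule and 4 days on a fixed-ratio 3 schedule, then a progressive ratio test filled day 12, and days 13 and 14 returned to the fixed-ratio 3 schedule. The animals then received either saline or naloxone, an opioid receptor antagonist, and tissue was collected 1 hour later. Each library combines animals of both sexes: punches of 6 males and 6 females, 12 rats in all, made up 3 saline libraries, numbered 1 to 3, and 3 naloxone libraries, numbered 4 to 6. No group without heroin is among the libraries, so every level below is a level after heroin. The p-values measure the spread between these pooled libraries, not between single animals.

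The 6 libraries held 64260 barcodes, against 44592 nuclei given in the protocol, and between 55739350 and 76272798 unique molecular identifiers (UMIs, 1 per captured RNA molecule) each. After filtering and removal of 2649 predicted doublets (4.30%), 58960 nuclei were used, with a median of 4259 to 6492 UMIs per nucleus in each library. Pairs of libraries shared 19 to 45 barcodes. Classes were set by the marker genes of single nuclei, none of them one of the 36 genes, and 26799 nuclei (45.5%) passed a gate. Mog stood at 1884 CPM (UMIs of the gene per 1000000 UMIs of the class) in oligodendrocyte-like nuclei and at 4.86 in Drd1-like ones. Csf1r stood at 1133 CPM in microglia-like nuclei and at 4.52 in astrocyte-like ones. Both genes are on the lists the gates use, so these differences follow in part from the gates and do not test the names. Drd2 stood at 584 CPM in Drd2-like nuclei, and its absence from Drd1-like nuclei was set by the gate. Drd1 itself was sparse, at 45.2 CPM in Drd1-like and 21.6 in Grm8-like nuclei. A UMI of Drd1, Pdyn, Isl1 or Ebf1 admitted a nucleus to the Drd1-like gate, which raises the first value. In clusters formed without the gates, Drd1 was 25.1 and 34.9 CPM in Drd1-like and 3.09 and 3.89 CPM in Drd2-like clusters. The Casz1-like cluster had 36.2 ± 4.77 CPM of Drd1, above the means of both Drd1-like clusters, and the Grm8-like cluster had 20.9 ± 2.41 CPM. Drd1 thus did not set the Drd1-like clusters apart from these spiny clusters. Among other clusters it was 7.39 CPM in oligodendrocyte precursor-like, 9.39 in astrocyte-like, 15.2 to 19.8 in oligodendrocyte-like, 18.2 in microglia-like and 30.9 ± 23.1 in mural-like ones. Of the Drd1-like nuclei, 11.7% lay within 20% above the gate's marker level. A class holding Slc5a7 and Lhx8 is called by those genes, because only these 2 markers of its list were measured.

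Levels are given as CPM, summed per class and library, as the mean ± SD over 6 libraries unless stated. Reads come from the 3′ end of transcripts and are not corrected for length, so a level is compared between classes for 1 gene and never between genes. Differences between classes are log2 values with their standard error (SE) from edgeR's quasi-likelihood test on summed counts with the library as a block. They are scaled to the bulk of genes and need not equal the ratio of CPM values. A gene is called higher or lower between classes at an adjusted p under 0.05 and a log2 difference of at least 1.

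Promoter sequences are shown for 4 genes that carry much of what follows: Hs3st4, Ust and Chst15, which were higher in Drd1-like than in Grm8-like or astrocyte-like nuclei, and Hs3st1, which was higher in oligodendrocyte-like nuclei. Each is the stretch of 250 bases before the annotated start, written 5′ to 3′ on the gene's strand, from RefSeq on the GRCr8 build: chr1:187969877-187970126 (plus strand) for Hs3st4, chr1:4782357-4782606 (minus strand) for Ust, chr1:196491184-196491433 (minus strand) for Chst15 and chr14:75398723-75398972 (plus strand) for Hs3st1. Capitals mark the GC box letters GGGCGG, or CCGCCC where the motif reads on the other strand.
Hs3st4: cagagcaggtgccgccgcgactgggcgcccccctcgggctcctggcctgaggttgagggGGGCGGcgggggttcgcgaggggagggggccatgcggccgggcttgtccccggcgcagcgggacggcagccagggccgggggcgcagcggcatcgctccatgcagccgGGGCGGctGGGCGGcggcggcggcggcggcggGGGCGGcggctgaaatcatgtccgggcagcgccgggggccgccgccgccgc
Ust: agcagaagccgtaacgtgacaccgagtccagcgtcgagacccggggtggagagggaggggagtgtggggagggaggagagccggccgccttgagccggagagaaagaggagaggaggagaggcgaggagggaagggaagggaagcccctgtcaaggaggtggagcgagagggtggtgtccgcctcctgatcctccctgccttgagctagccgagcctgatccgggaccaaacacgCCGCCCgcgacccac
Chst15: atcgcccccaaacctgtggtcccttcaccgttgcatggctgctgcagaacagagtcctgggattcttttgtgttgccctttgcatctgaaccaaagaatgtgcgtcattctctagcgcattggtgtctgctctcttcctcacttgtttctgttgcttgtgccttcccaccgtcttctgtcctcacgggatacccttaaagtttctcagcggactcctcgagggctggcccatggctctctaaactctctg
Hs3st1: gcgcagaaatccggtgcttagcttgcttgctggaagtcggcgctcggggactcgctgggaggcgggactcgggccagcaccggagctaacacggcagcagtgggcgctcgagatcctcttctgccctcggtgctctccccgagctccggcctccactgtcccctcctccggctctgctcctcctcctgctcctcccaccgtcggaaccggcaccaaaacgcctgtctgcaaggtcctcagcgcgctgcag
The Hs3st4 stretch held 4 matches and 37 CG pairs, and that of Ust 1 match and 18 CG pairs. Chst15 and Hs3st1 had 0 matches, with 8 and 22 CG pairs. Over 33469 rat promoters of the same length, 30.5% held at least 1 match and the median was 5 CG pairs. A promoter was at hand for 29 of the 36 genes, and 17 of these 29 (58.6%) held a match. A match describes letters only, and the 2 genes without one differ in where they were high.

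The 36 genes spanned a wide range of detection, from 9 UMIs over all nuclei for Hs3st6 to 198597 for Hs3st4. Hs3st6, Chst14 (43 UMIs) and Chst4 (46 UMIs) were too sparse for any test. Chst13 (100 UMIs), Hs3st3a1 (120) and Hs3st3b1 (125) were also near the limit, and Hs3st3a1 and Hs3st3b1 are close paralogs whose reads may be hard to assign. Over the 6 class comparisons made, 24 of the 36 genes were called at least once. Single comparisons called from 3.21% to 45.8% of all genes, and the share of all genes called at least once is not given here. The 12 never called were these 3 sparse genes without a test, the Hs3st3a1 and Hs3st3b1 pair, and Chst12, Ext2, Extl2, Extl3, Hs2st1, Hs6st1 and Ndst2. Several of these were close to even: Ext2, a subunit of the polymerase, ranged from 61.2 to 124 CPM over the 15 classes, and Hs2st1 from 59.1 to 163 CPM. The map of mean levels by gene and class shows these rows as nearly flat bands between rows with a single bright cell.

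**Figure D1:**
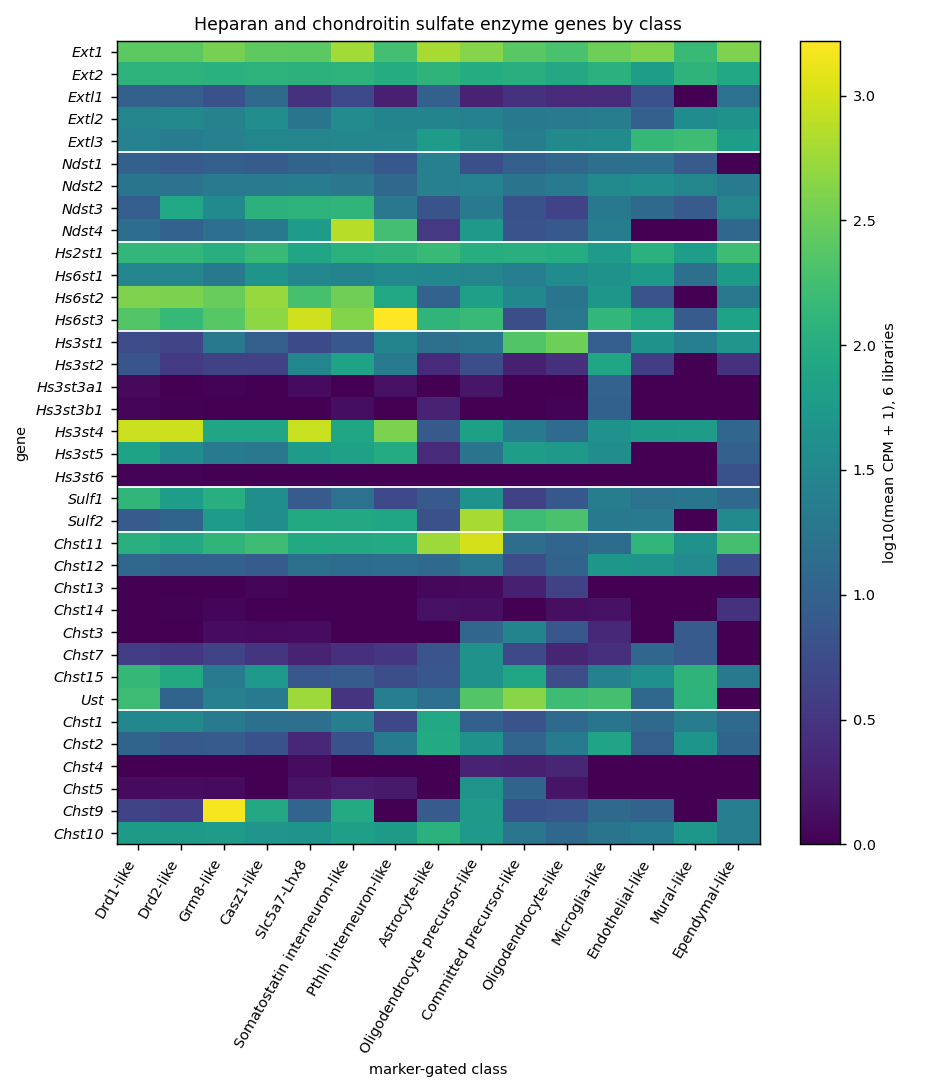
Mean level of each of the 36 genes (rows, grouped by enzyme step) in 15 marker-gated classes (columns), as log10 of the mean CPM over 6 libraries plus 1. Ext2 and Hs2st1 form even rows, while Chst9 peaks in Grm8-like nuclei, Hs3st4 in Drd1-like, Drd2-like and Slc5a7-Lhx8 nuclei and Chst11 in oligodendrocyte precursor-like nuclei.

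The 4 spiny neuron classes differed in Chst9, a sulfotransferase of other glycans, in enzymes of the first and the last step of heparan sulfation, Ndst3 and Hs3st4, and in Chst15 and Ust of the chondroitin branch. Spiny projection neurons are the main output neurons of the striatum, and are split by the dopamine receptor they carry. Drd1-like (3370 nuclei) and Drd2-like (2827) nuclei are these principal kinds. Grm8-like nuclei (2267) carry Grm8, Foxp2, Tshz1 and the mu opioid receptor gene Oprm1, and Casz1-like nuclei (915) carry Casz1 or Mdfic with Foxp2 and Tshz1.

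Chst9, which sulfates N-acetylgalactosamine on N-linked sugars, was concentrated in Grm8-like nuclei. Its level there was 1345, 1459 and 1545 CPM in saline libraries 1 to 3 and 1499, 1570 and 1514 CPM in naloxone libraries 4 to 6. In Drd1-like nuclei it was 2.37, 4.64 and 2.26 CPM with saline and 1.24, 6.24 and 4.74 CPM with naloxone. The lowest Grm8-like library thus stood far above the highest Drd1-like one, and the log2 difference was 8.49 ± 0.10 (SE; edgeR adjusted p = 1.6e-25; higher in 6 of 6 libraries). Casz1-like nuclei came next among spiny classes, at 86.6 ± 32.7 CPM, and Drd2-like nuclei had 2.83 ± 1.64 CPM. A Chst9 UMI was found in 87.3% of Grm8-like nuclei (median depth 6309 UMIs) but in 2.24% of Drd1-like nuclei (9305 UMIs) and 0.551% of oligodendrocyte-like nuclei (1639 UMIs). With each nucleus thinned to 1000 UMIs, leaving 2266, 3369 and 9841 nuclei, these shares were 65.7%, 0.407% and 0.370%, so the Drd1-like share is at the level seen in a glial class. Outside spiny neurons, somatostatin interneuron-like nuclei had 91.1 CPM and those of the oligodendrocyte precursor-like class 52.2 ± 24.1 CPM.

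Chst15, the enzyme that makes chondroitin sulfate E, had nearly the opposite order among spiny classes. Drd1-like nuclei had 145, 146 and 140 CPM with saline and 130, 135 and 137 CPM with naloxone. Drd2-like nuclei had 104, 110 and 88.1 CPM with saline and 87.7, 76.4 and 69.3 CPM with naloxone. Every Drd1-like library was above every Drd2-like one, but the log2 difference, -0.62 ± 0.05 (Drd2-like minus Drd1-like; edgeR adjusted p = 2.0e-09), was below the size set for a call. Casz1-like nuclei followed at 50.5 ± 12.0 CPM and Grm8-like nuclei at 20.2 ± 1.94 CPM, which was a log2 difference from Drd1-like of -2.92 ± 0.07 (edgeR adjusted p = 1.0e-20; lower in 6 of 6 libraries). The share of nuclei with a Chst15 UMI was 62.6% in Drd1-like, 50.3% in Drd2-like and 9.62% in Grm8-like nuclei, against 0.839% in oligodendrocyte-like ones. Thinned to 1000 UMIs these became 12.7%, 7.99%, 1.56% and 0.420%. Thus Grm8-like nuclei were high in Chst9 and low in Chst15, and Drd1-like nuclei the reverse.

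Hs3st4, one of the enzymes that add the late sulfate to heparan sulfate, was high in both principal spiny classes and low in the other spiny classes. It stood at 968, 989 and 869 CPM with saline and 1014, 855 and 872 CPM with naloxone in Drd1-like nuclei. Drd2-like nuclei had 931, 1115 and 924 CPM with saline and 917, 820 and 982 CPM with naloxone. These ranges overlap, and the log2 difference between the classes was 0.06 ± 0.04 (edgeR adjusted p = 0.37). In Grm8-like nuclei the level was 80.3 ± 11 CPM and in Casz1-like nuclei 77.3 ± 9.17 CPM. The Grm8-like minus Drd1-like difference was -3.67 ± 0.05 (edgeR adjusted p = 1.5e-24). Among interneurons, Slc5a7-Lhx8 nuclei reached 890 ± 268 CPM, in the range of the principal spiny classes.

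Ust and Ndst3 separated Drd1-like from Drd2-like nuclei in opposite directions. Ust, the chondroitin uronyl sulfotransferase, had 133, 184 and 185 CPM with saline and 164, 153 and 140 CPM with naloxone in Drd1-like nuclei. In Drd2-like nuclei it had 6.88, 11.3 and 9.50 CPM with saline and 2.85, 14.1 and 15.7 CPM with naloxone, a log2 difference of -3.91 ± 0.12 (edgeR adjusted p = 1.7e-18). Ndst3, which starts heparan sulfation, had 7.13, 4.64 and 5.0 CPM with saline and 17.6, 6.24 and 8.80 CPM with naloxone in Drd1-like nuclei. Drd2-like nuclei had 88.7, 76.8 and 78.9 CPM with saline and 84.5, 89.7 and 77.8 CPM with naloxone, a difference of 3.45 ± 0.13 (edgeR adjusted p = 1.1e-16). No library of one class reached the range of the other for either gene. Casz1-like nuclei had the Drd2-like pattern, with Ndst3 at 115 ± 20.2 CPM and Ust at 21 ± 11.1 CPM. Grm8-like nuclei were intermediate for Ndst3 (33.7 ± 9.39 CPM) and low for Ust (24.4 ± 4.79 CPM).

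The sulfatase genes were also unequal among spiny classes. Sulf1 had 115, 146 and 141 CPM with saline and 129, 135 and 128 CPM with naloxone in Drd1-like nuclei, and 62.8 ± 8.66 CPM in Drd2-like nuclei. That difference was -1.07 ± 0.05 (edgeR adjusted p = 1.1e-14), just past the size for a call. Sulf2 was highest, among spiny classes, in Grm8-like nuclei, at 65.3, 49.99 and 55.6 CPM with saline and 72.6, 52.2 and 51.2 CPM with naloxone. Drd1-like nuclei had 7.28 ± 1.96 CPM of it, a difference of 2.85 ± 0.11 (edgeR adjusted p = 2.1e-16).

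Counted over the whole set, 4 of 28 tested genes were called between Drd2-like and Drd1-like nuclei, where 3.21% of all genes were called: Ndst3 was higher in Drd2-like nuclei (0.94% of all genes), and Ust, Sulf1 and the sparse Hs3st2 (2.52 against 6.05 CPM) were lower (2.27%). The Hs3st2 call was lost with classes taken from clusters (-0.21, edgeR adjusted p = 0.513) and without naloxone library 6 (-0.87). With classes from clusters, 186 genes in place of 118 were higher over all genes, and the higher share of the called genes moved from 29.3% to 45.7%. Hs3st5 fell just short of the call, at -0.98 ± 0.07 (35.7 against 72.6 CPM). Between Grm8-like and Drd1-like nuclei, 8 of 28 were called, against 11.7% of all genes. Higher in Grm8-like nuclei (5.43% of all genes) were Chst9, Sulf2, Ndst3 (1.94 ± 0.15) and Hs3st1 (1.89 ± 0.14, at 18.9 against 4.60 CPM), and lower (6.31%) were Hs3st4, Chst15, Ust (-2.83 ± 0.08) and Hs3st5 (-2.01 ± 0.13). Both comparisons use the same Drd1-like sums. The median log2 difference over the tested genes of the set was -0.17 in the Drd2-like comparison, beside 0.00 over all genes, and -0.23 in the Grm8-like comparison, beside 0.03. Hs6st2, which sulfates glucosamine, was broad in spiny neurons, at 532 ± 51.4 CPM in Casz1-like, 392 in Drd1-like, 385 in Drd2-like and 297 in Grm8-like nuclei.

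**Figure D2:**
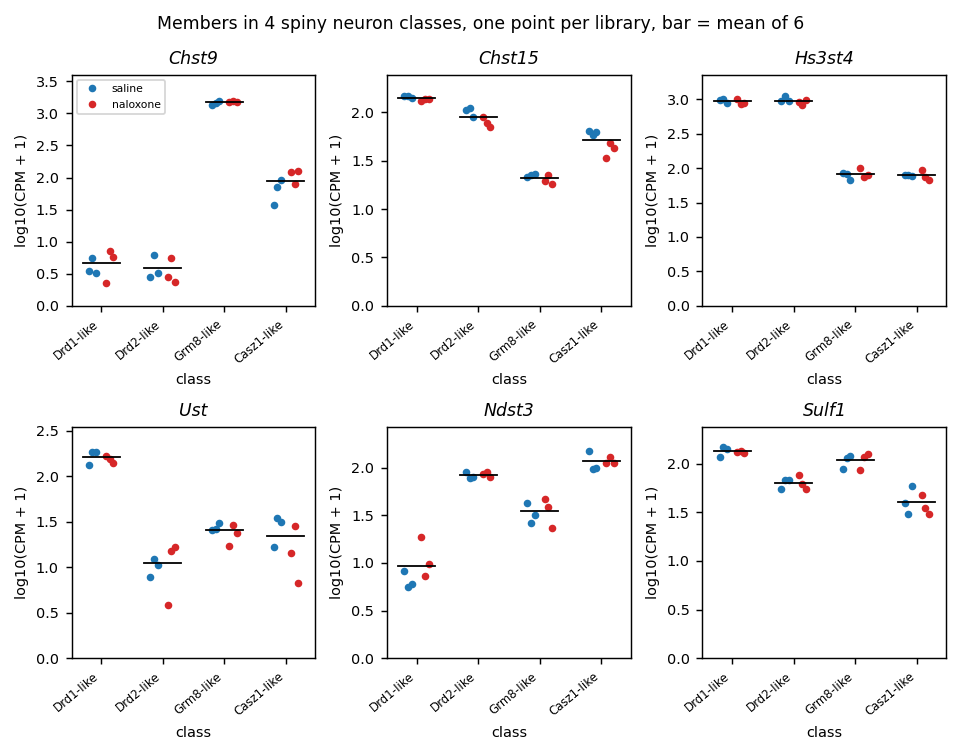
Level of Chst9, Chst15, Hs3st4, Ust, Ndst3 and Sulf1 in 4 spiny neuron classes (x axis), as log10 of CPM plus 1; each point is a library (blue saline, red naloxone) and each bar the mean of 6. Chst9 stands apart in Grm8-like nuclei, and Ust and Ndst3 separate Drd1-like from Drd2-like nuclei in opposite directions without overlap.

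The same genes were not uniform between clusters named Drd1-like, which also hold many nuclei outside the gated class. Of the 3370 gated Drd1-like nuclei, 89.9% lay in these clusters. Clustering, from which the 36 genes were kept out, gave 2 Drd1-like clusters: one of 2809 nuclei with high Ebf1 (313 ± 57.8 CPM) and low Pde11a (7.87 CPM), and one of 4911 nuclei with high Pde11a (122 ± 11.1 CPM) and low Ebf1 (3.29 CPM). Ust was 32.3, 37.4 and 27.5 CPM with saline and 45.6, 29.96 and 22.6 CPM with naloxone in the Ebf1-high cluster. The Pde11a-high cluster had 190, 218 and 226 CPM of Ust with saline and 192, 201 and 205 CPM with naloxone. Hs6st3, another glucosamine sulfotransferase, was 65.9 ± 6.30 CPM in the first and 287 ± 73.1 CPM in the second, and Sulf1 was 78.6 ± 10.9 and 153 ± 10.2 CPM. All 6 libraries of the Pde11a-high cluster lay above all 6 of the Ebf1-high cluster for these 3 genes. Chst15 (117 ± 9.96 and 144 ± 7.11 CPM) and Hs3st4 (849 and 975 CPM) differed less. Among Drd2-like clusters the relation of Hs6st3 to Pde11a was the reverse. Hs6st3 was 42.5 ± 23.8 CPM where Pde11a was 112 CPM, and 219 ± 38.3 CPM where Pde11a was 6.51 CPM. These are descriptions of clusters, with no test.

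**Figure D3:**
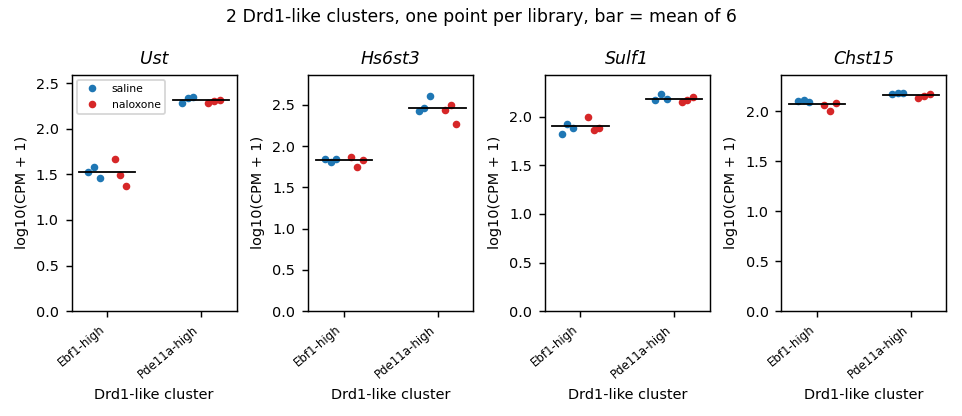
Level of Ust, Hs6st3, Sulf1 and Chst15 in the 2 Drd1-like clusters (x axis), as log10 of CPM plus 1; each point is a library (blue saline, red naloxone) and each bar the mean of 6. Ust, Hs6st3 and Sulf1 are higher in the Pde11a-high cluster in every library.

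Interneuron-like classes, which are small, had the highest mean levels of Hs6st3, Ndst3, Ndst4 and Ust among the 15 classes, while other genes of the same families were not high there. Hs6st2 was 84.7 CPM in Pthlh interneuron-like and 192 CPM in Slc5a7-Lhx8 nuclei, below the means of all 4 spiny classes, and Ndst2 had its lowest mean of the 15 classes in Pthlh interneuron-like nuclei (11.2 CPM). Hs6st3 ranged from 858 to 2736 CPM over the libraries of Pthlh interneuron-like nuclei (129 nuclei; mean 1658 ± 671) and from 696 to 1378 CPM in Slc5a7-Lhx8 nuclei (308 nuclei; mean 959 ± 257). Those 2 ranges overlap, and both lie above the 392 to 530.2 CPM of Casz1-like nuclei, the next class by mean, but somatostatin interneuron-like nuclei reached 709.9 CPM in 1 library. Ndst4, like Ndst3 an enzyme that starts heparan sulfation, ranged from 487 to 1027 CPM in somatostatin interneuron-like nuclei (224 nuclei; mean 741 ± 188), against a mean of 178 CPM in Pthlh interneuron-like nuclei and means of at most 58.5 CPM elsewhere. The Pthlh interneuron-like libraries ran from 11.4 to 587 CPM, and so overlapped the somatostatin interneuron-like ones. Ust reached its highest level in Slc5a7-Lhx8 nuclei, at 560, 511 and 578 CPM with saline and 329, 555 and 777 CPM with naloxone, which overlaps the 284 to 635 CPM of committed precursor-like nuclei. Ndst3 was 129 CPM in somatostatin interneuron-like and 121 CPM in Slc5a7-Lhx8 nuclei, overlapping the Casz1-like range. No test of these classes against others was planned.

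The glial classes differed from Drd1-like neurons and from each other gene by gene. Chst11 was high in oligodendrocyte precursor-like and astrocyte-like nuclei, Hs3st1 in oligodendrocyte-like nuclei, and Sulf2 in both oligodendrocyte precursor-like and oligodendrocyte-like but not in astrocyte-like nuclei. Hs6st2, broad in spiny neurons, was low in oligodendrocyte-like (16.8 CPM) and astrocyte-like (9.38 CPM) nuclei. Oligodendrocytes make myelin, oligodendrocyte precursors are the dividing cells from which they form, and committed precursors stand between them. Astrocytes regulate the extracellular space and contact vessels and synapses. The classes held 11611 oligodendrocyte-like, 1730 oligodendrocyte precursor-like, 180 committed precursor-like, 1845 astrocyte-like and 1067 microglia-like nuclei.

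Chst11, a chondroitin sulfotransferase, was highest in oligodendrocyte precursor-like nuclei, at 1007, 1004 and 900 CPM with saline and 981, 1159 and 1084 CPM with naloxone. Astrocyte-like nuclei had 585, 569 and 520 CPM with saline and 579, 568 and 546 CPM with naloxone. In oligodendrocyte-like nuclei it was 3.90, 11.2 and 4.37 CPM with saline and 9.31, 26.6 and 6.99 CPM with naloxone. The 3 ranges do not overlap. The precursor-like minus oligodendrocyte-like difference was 6.81 ± 0.23 (edgeR adjusted p = 7.5e-13) and the astrocyte-like minus oligodendrocyte-like difference 5.86 ± 0.22 (edgeR adjusted p = 3.9e-13), each higher in 6 of 6 libraries. Committed precursor-like nuclei, at 13.1 CPM, were already near the oligodendrocyte-like level.

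Hs3st1, a heparan sulfotransferase of the same family as Hs3st4, ran the other way along this lineage. It had 331, 331 and 320 CPM with saline and 303, 288 and 339 CPM with naloxone in oligodendrocyte-like nuclei, 222 CPM in committed precursor-like nuclei and 16.8 ± 3.85 CPM in the oligodendrocyte precursor-like class. The precursor-like minus oligodendrocyte-like difference was -4.21 ± 0.11 (edgeR adjusted p = 4.5e-14; lower in 6 of 6 libraries). Drd1-like nuclei had 4.60 CPM, so that oligodendrocyte-like nuclei exceeded them by 5.80 ± 0.10 on the log2 scale (edgeR adjusted p = 2.8e-13), while Hs3st4 was lower in oligodendrocyte-like than in Drd1-like nuclei by a log2 difference of -6.58 ± 0.14.

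Sulf2, the sulfatase, had 599, 616 and 557 CPM with saline and 607, 681 and 661 CPM with naloxone in oligodendrocyte precursor-like nuclei. It had 188, 174 and 186 CPM with saline and 197, 224 and 216 CPM with naloxone in oligodendrocyte-like nuclei, and 5.38 ± 3.57 CPM in astrocyte-like nuclei. The precursor-like minus oligodendrocyte-like difference was 1.71 ± 0.07 (edgeR adjusted p = 5.7e-12) and the astrocyte-like minus oligodendrocyte-like difference -5.18 ± 0.19 (edgeR adjusted p = 3.7e-13). Sulf1, by contrast, was at 6.69 CPM in oligodendrocyte-like and 6.84 CPM in astrocyte-like nuclei, and the precursor-like class had 43.0 CPM of it.

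Chst5, a sulfotransferase of keratan sulfate type sugars, and Chst7 were highest at the precursor stage. Chst5 had 48.0, 47.1 and 40.2 CPM with saline and 55.8, 38.7 and 40.8 CPM with naloxone in oligodendrocyte precursor-like nuclei, 9.90 CPM in committed precursor-like nuclei and 0.522 CPM in oligodendrocyte-like nuclei, a log2 difference between the first and the last of 6.51 ± 0.27 (edgeR adjusted p = 7.4e-12). Astrocyte-like nuclei had 0 Chst5 UMIs of 5971728, so against a floor of 3 UMIs over the class the precursor-like level was at least 90.3-fold higher. Chst7, a chondroitin sulfotransferase, had 44.3, 33.9 and 57.7 CPM with saline and 45.7, 37.5 and 48.7 CPM with naloxone in the precursor-like class, against 1.14 CPM in oligodendrocyte-like nuclei (5.30 ± 0.23; edgeR adjusted p = 1.5e-11). Chst3, which sulfates the same position of chondroitin as Chst7, was highest in committed precursor-like nuclei (27 ± 6.3 CPM, from 22 UMIs). Its 136 UMIs in oligodendrocyte-like nuclei made it at least 12.4-fold higher there than in astrocyte-like nuclei, which had 0 UMIs.

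In all, 19 of 29 tested genes were called between oligodendrocyte precursor-like and oligodendrocyte-like nuclei, where 33.9% of all genes were called. Of these, 16 were higher in the precursor-like class (20.4% of all genes) and 3 lower (13.5%): Hs3st1, Hs3st5 (-1.58 ± 0.20) and Ndst1 (-1.03 ± 0.26), the last of which was not called without saline library 3 (-0.91) or naloxone library 4 (-0.89), with classes from clusters (-0.81) or with mixed clusters kept (-0.91). The median log2 difference was 1.21 over the tested genes of the set and -0.06 over all genes. Besides those above, the higher genes included Ext1 of the heparan polymerase (1.21 ± 0.07; 435 against 195 CPM), Hs6st3 (3.06 ± 0.36), Chst15 (3.27 ± 0.18; 43.9 against 4.84 CPM), Chst9 (3.25 ± 0.28), Sulf1 (2.73 ± 0.24), Hs6st2 (2.03 ± 0.20), Chst10 (2.34 ± 0.22) and Chst2 (1.14 ± 0.15). The sparse Hs3st2 (1.71 ± 0.71) was not called with doublets kept (0.53, adjusted p = 0.537), mixed clusters kept (0.83, 0.158), DESeq2 (1.38, 0.205), no composition factors (1.65, 0.0538), or without saline library 2 (1.61, 0.0897) or saline library 3 (1.76, 0.0652). Hs3st4 (2.45 ± 0.35) and Ndst4 (2.94 ± 0.53) were called too, but their precursor-like levels ranged widely between libraries, from 5.0 to 110 CPM and from 6.24 to 146 CPM. With classes taken from clusters, the Hs3st4 difference turned to -0.25 and that of Ndst3 was not called (0.72, edgeR adjusted p = 0.0982). The precursor-like nuclei also held spiny neuron markers, at 650 to 758 CPM summed over the list of 5 in the 6 libraries, with Pde10a at 608 CPM against 52.9 CPM in oligodendrocyte-like nuclei, and their part in the levels of neuron-rich genes such as Hs3st4, Hs6st2 and Sulf1 was not tested.

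Astrocyte-like nuclei stood apart from oligodendrocyte-like nuclei in 15 of 28 tested genes, where 34.4% of all genes were called. The 9 higher genes (20.7% of all genes) were Chst11, Chst10, Hs6st3 (2.86 ± 0.17), Chst1, Extl1, Chst7, Chst2, Ext1 and Ndst1. The 6 lower ones (13.7% of all genes) were Chst3, Sulf2, Hs3st5 (-4.98 ± 0.26), Hs3st1 (-4.46 ± 0.15), Ust (-3.54 ± 0.14) and Ndst4 (-1.39 ± 0.41). The Ndst4 difference, from 14 against 138 UMIs, was not called with classes from clusters (-0.31, edgeR adjusted p = 0.341), mixed clusters kept (-0.29, 0.609) or doublets kept (-0.79, 0.10). Ext1 had 672, 645 and 666 CPM with saline and 565, 545 and 631 CPM with naloxone in astrocyte-like nuclei, 1.65 ± 0.08 above the oligodendrocyte-like level on the log2 scale (edgeR adjusted p = 1.4e-11). Chst10, which makes a sulfated sugar epitope of neural adhesion molecules, had 140, 116 and 126 CPM with saline and 99.2, 99.6 and 102 CPM with naloxone, 3.37 ± 0.19 above it. Every astrocyte-like library was above every library of the next class by mean for Chst10, but a mural-like library reached 171 CPM, from 6 UMIs over that class. Chst2, a keratan sulfate enzyme, had 122, 115 and 101 CPM with saline and 94.1, 53.1 and 67.6 CPM with naloxone in astrocyte-like nuclei, a range that overlaps that of microglia-like nuclei (60.4 to 93.4 CPM). Chst1, of the same pathway, was 41.6, 76.3 and 80.0 CPM with saline and 71.6, 168 and 47.5 CPM with naloxone, with naloxone library 5 far above the others. Ndst1 was 24.0 ± 5.96 CPM in astrocyte-like and 10.6 ± 2.58 CPM in oligodendrocyte-like nuclei.

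Against Drd1-like neurons, 14 of 28 tested genes were called in astrocyte-like nuclei and 17 of 30 in oligodendrocyte-like nuclei, where 41.4% and 45.8% of all genes were called. Astrocyte-like nuclei were higher in 5 (21.5% of all genes) and lower in 9 (19.9%). The 5 were Chst2 (2.82 ± 0.15), Chst11 (1.98 ± 0.07), Hs3st1 (1.31 ± 0.24), Ndst1 (1.10 ± 0.17) and Chst1 (1.04 ± 0.11). Chst1 fell below the size for a call without saline library 3 (0.996), naloxone library 5 (0.97) or naloxone library 6 (0.97). The largest of the lower differences were those of Hs3st4 (-7.36 ± 0.13; 7.06 against 928 CPM), Hs3st5 (-5.80 ± 0.22) and Hs6st2 (-5.68 ± 0.14; 9.38 against 392 CPM). Oligodendrocyte-like nuclei were higher in 4 (21.4% of all genes), namely Hs3st1, Sulf2 (4.46 ± 0.13) and the sparse Chst3 and Chst13, and lower in 13 (24.4%), among them the sparse Ndst4, at -1.29 ± 0.29. With doublets kept, the Ndst4 difference was -0.03 (edgeR adjusted p = 0.948), and it also missed the size for a call with classes from clusters (-0.92), with mixed clusters kept (-0.97), without composition factors (-0.98) and without naloxone library 6 (-0.95). Ndst3 missed it with doublets kept (-0.89) and with mixed clusters kept (-0.99). Chst13 had 67 UMIs in oligodendrocyte-like nuclei and 0 in Drd1-like ones, at least 34.8-fold higher with a floor of 3 UMIs. Without the factors that correct for library composition, the share of all called genes that were higher in glia moved from 52.0% to 64.1% for astrocyte-like and from 46.7% to 57.7% for oligodendrocyte-like nuclei, and the median over all genes rose by 0.37 and 0.31. Under that scaling Hs6st3 in astrocyte-like nuclei, called lower at -1.23 ± 0.15, stood at -0.87 and was not called. The 4 comparisons of glia with each other and with neurons reuse the same class sums.

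**Figure D4:**
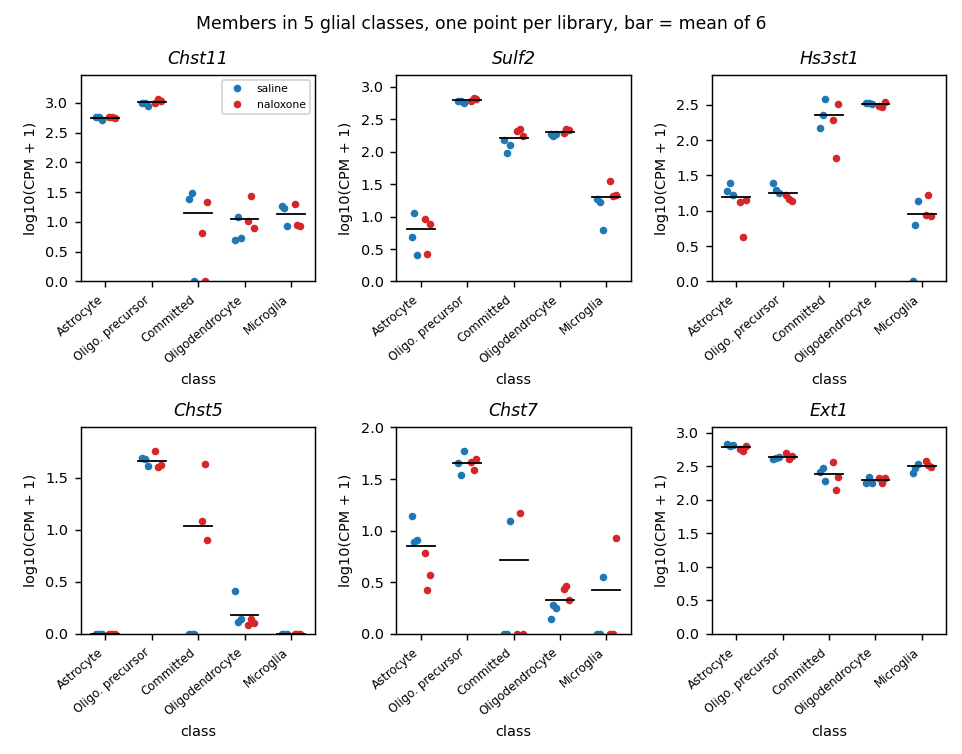
Level of Chst11, Sulf2, Hs3st1, Chst5, Chst7 and Ext1 in 5 glial classes (x axis), as log10 of CPM plus 1; each point is a library (blue saline, red naloxone) and each bar the mean of 6. Chst11, Chst5 and Chst7 are high in oligodendrocyte precursor-like nuclei and low in oligodendrocyte-like nuclei, and Hs3st1 runs the other way.

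Microglia-like nuclei, the resident immune cells, held a few of these genes. Hs3st2 ranged from 46.7 to 114 CPM there (76.9 ± 25.2), in the range of somatostatin interneuron-like nuclei (70.6 CPM), while both principal spiny classes had at most 10.3 CPM in any library. Hs3st3a1 (9.31 ± 7.79 CPM, 15 UMIs) and Hs3st3b1 (8.91 ± 3.85 CPM, 17 UMIs) had their highest levels in this class, on very few UMIs. Ust was 186 ± 16.5 CPM in microglia-like, 227 ± 23.4 in oligodendrocyte precursor-like, 437 ± 125 in committed precursor-like and 164 ± 11.2 CPM in oligodendrocyte-like nuclei, against 13.9 ± 4.13 CPM in astrocyte-like nuclei. Vascular classes were small (135 endothelial-like and 82 mural-like nuclei). Chst15 reached 122 ± 70.4 CPM in mural-like nuclei on 12 UMIs, and Extl3, which helps to start heparan chains, had 166 CPM there and 139 CPM in endothelial-like nuclei.

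Other genes of the pathway were read from a list of 53 measured genes. In Grm8-like against Drd1-like nuclei, 9 of 43 tested were called (20.9%, against 11.7% of all genes), 3 higher and 6 lower. Among them Chsy3, which polymerises chondroitin, was lower (-1.42 ± 0.05; 430 against 1048 CPM) and Csgalnact1, which starts chondroitin chains, was higher (1.33 ± 0.07). In Drd2-like against Drd1-like nuclei, 1 of 42 was called (2.38%, against 3.21% of all genes), the heparan core protein gene Gpc3 (-2.04 ± 0.20). Along the oligodendrocyte lineage, 22 of 41 were called (53.7%, against 33.9% of all genes) and all 22 were higher in the precursor-like class. All 8 tested chondroitin core protein genes were among them, with Vcan at 5.15 ± 0.09, Cspg4 at 5.60 ± 0.10 and Ptprz1 at 5.31 ± 0.17, and so was Xylt1, which links the chains to their core proteins, at 6.36 ± 0.10. Astrocyte-like nuclei were higher than oligodendrocyte-like ones in 20 of 42 and lower in 6 (61.9% called, against 34.4% of all genes). The higher genes included Gpc5 (7.00 ± 0.33), Bcan (4.56 ± 0.10) and Papss2 (5.35 ± 0.17), the last of which makes the sulfate donor. Chsy3 (-3.45 ± 0.16) was lower, while Chsy1, of the same function, was higher (3.81 ± 0.14). Against Drd1-like nuclei, astrocyte-like nuclei were called in 24 of 44 (54.5%, against 41.4% of all genes): 16 were higher and 8 lower, the latter including all 3 epimerase genes Glce, Dse and Dsel. Oligodendrocyte-like nuclei were called in 22 of 45 (9 higher, 13 lower), and this 48.9% is near the 45.8% of all genes.

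Naloxone against saline asks whether blocking opioid receptors after heroin changes these genes within an hour. Summed over all nuclei, 0 of 33 tested genes were called by edgeR (adjusted p under 0.05), and DESeq2 also called 0. Over all genes, 7 of 17342 were called (0.0404%). At an unadjusted p under 0.05 stood 5 of the 33 (15.2%), close to the 14.1% of all genes: Chst15 (-0.31 ± 0.11), Hs3st3a1 (0.78 ± 0.27), Ndst4 (0.53 ± 0.18), Hs3st5 (0.27 ± 0.12) and Sulf2 (0.22 ± 0.09), and DESeq2 gave 4. The libraries of the groups did not overlap for 5 of the 33 genes, against 21.4% of all genes. Without naloxone library 5, edgeR called 2 genes, Hs3st5 (0.40) and Ndst4 (0.74), and the share of all genes called in that fit is not given here. A sum over all nuclei cannot tell fewer nuclei of a class from less RNA per nucleus.

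Within 10 classes with at least 20 nuclei in each library, 220 pairs of gene and class were tested and 1 was called. The share of all genes called was 0.206% in Drd1-like, 0.417% in Drd2-like, 0.129% in Grm8-like, 0.0435% in Casz1-like, 0.195% in oligodendrocyte precursor-like, 0.522% in oligodendrocyte-like and 0.0372% in microglia-like nuclei, and 0 genes were called in Slc5a7-Lhx8 and somatostatin interneuron-like nuclei. An unadjusted p under 0.05 was found for 26 of the 220 pairs (11.8%), beside 5.51% to 12.0% of all genes in the 10 classes. The called pair was Hs6st3 in astrocyte-like nuclei, where 82 of 8927 genes (0.919%) were called. Its level was 62.4, 82.0 and 122 CPM with saline and 239, 111 and 145 CPM with naloxone. The groups overlap, since saline library 3 exceeded naloxone library 5, and naloxone library 4 stood apart above the rest. The log2 change was 0.91 ± 0.22 (edgeR adjusted p = 0.0489), and over the alternatives its adjusted p ranged from 9.0e-07 to 0.537. The call was lost with DESeq2 (adjusted p = 0.537), without saline library 1 (0.256), saline library 2 (0.231) or naloxone library 4 (log2 change 0.57, adjusted p = 0.283), with doublets kept (0.76, adjusted p = 0.331), with mixed clusters kept (0.59, 0.356), and with all classes adjusted together (0.108). Beside it, the 3 Pthlh interneuron markers, a class rich in Hs6st3, summed to 1.14 to 2.6 CPM in saline and 3.32 to 6.03 CPM in naloxone astrocyte-like libraries, with 2 of 3 higher and Pvalb at 0. The microglia markers summed to 55.9 to 76.3 and 79.7 to 111 CPM (5 of 6 higher), the spiny neuron markers to 489 to 1084 and 250 to 777 CPM (2 of 5 higher), and the astrocyte markers to 3046 to 3216 and 3647 to 4032 CPM (3 of 5 higher). Their part in the Hs6st3 result was not tested, and leading genes of the unnamed cluster richest in Hs6st3, described below, were not summed. In oligodendrocyte-like nuclei the Hs6st3 change was 1.14, not called at the settings used throughout. It was called there without naloxone library 6 (1.53, edgeR adjusted p = 0.0367) and with no filter on low counts (1.13, 0.0029). The astrocyte-like minus oligodendrocyte-like difference in naloxone effect was -0.13 ± 0.36 (edgeR adjusted p = 0.983), so the change was not shown to be particular to astrocyte-like nuclei.

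The genes that separated spiny classes were not called between the treatments. Chst9 in Grm8-like nuclei changed by 0.09 ± 0.07 (edgeR adjusted p = 0.760), Hs3st4 in Drd1-like nuclei by -0.05 ± 0.09 (0.849) and Ndst3 in Drd2-like nuclei by 0.06 ± 0.09 (0.852). In Drd1-like nuclei, where Ndst3 was low, its change was 0.90, with overlapping libraries. That change was called with no filter on low counts (0.89, edgeR adjusted p = 0.0098). Among glia, Chst11 in oligodendrocyte precursor-like nuclei had a value of 0.15 ± 0.09 (edgeR adjusted p = 0.720) and Hs3st1 in oligodendrocyte-like nuclei of -0.09 ± 0.11 (0.816). Chst15 had values below 0 in Drd2-like nuclei, -0.37 ± 0.11 (edgeR adjusted p = 0.169), and in Drd1-like nuclei, -0.11 ± 0.08 (0.612), and in both the 3 naloxone libraries lay below the 3 saline libraries. In Drd2-like nuclei such separation was seen for 4 of 27 tested genes, against 17.4% of all genes, and in Drd1-like nuclei for 5 of 28, against 16.8%. Chst9 in somatostatin interneuron-like nuclei had a value of 1.52 ± 0.42 (edgeR adjusted p = 0.804), from 14.4, 53.4 and 63.0 CPM with saline and 202, 49.0 and 165 CPM with naloxone, which overlap. An exact permutation test of 3 against 3 libraries cannot give a p under 0.1. Of the 53 other pathway genes, only Dsel, an epimerase that turns chondroitin into dermatan sulfate, was called in any class, in Drd2-like nuclei: 70.1, 60.3 and 74.8 CPM with saline and 47.4, 45.0 and 44.7 CPM with naloxone (-0.57 ± 0.11; edgeR adjusted p = 0.0326), where 0.417% of all genes were called.

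**Figure D5:**
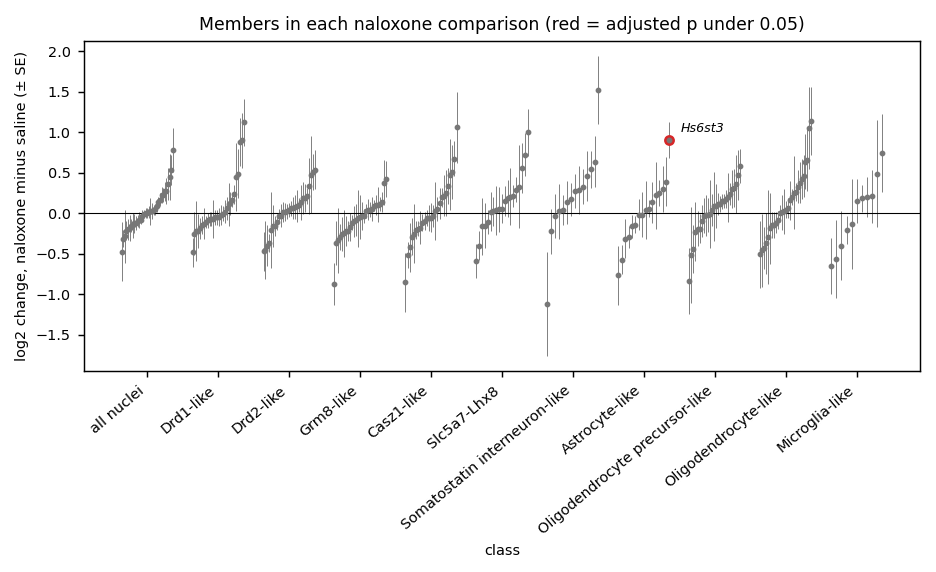
Log2 change with naloxone against saline (y axis, ± SE) of each tested gene of the set, over all nuclei and in 10 classes (x axis), sorted within each class. Most values lie near 0, and Hs6st3 in astrocyte-like nuclei (red) is the only one with an adjusted p under 0.05.

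Whether classes differed in their response was tested for 3 pairs of classes. Of 28 genes tested in each, 1 was called, Ndst4 in the Grm8-like minus Drd1-like pair, where 7 of 12221 genes (0.0573%) were called. In the Drd2-like minus Drd1-like pair 0.375% of all genes were called and in the astrocyte-like minus oligodendrocyte-like pair 0.0246%. Ndst3 was not called in the Drd2-like minus Drd1-like pair (-0.78 ± 0.27, edgeR adjusted p = 0.381) or the Grm8-like minus Drd1-like pair (-0.78 ± 0.28, 0.652). Without naloxone library 5 it was called in both (-1.15, edgeR adjusted p = 0.0318, and -1.16, 0.0333). In Grm8-like nuclei Ndst4 was 23.7, 13.6 and 18.7 CPM with saline and 9.62, 6.82 and 12.6 CPM with naloxone. In Drd1-like nuclei it was 12.2, 8.96 and 7.58 CPM with saline and 15.6, 10.6 and 26.4 CPM with naloxone. The naloxone libraries were the lower ones in Grm8-like nuclei without overlap, while in Drd1-like nuclei the ranges overlap. The difference between the 2 naloxone effects was -1.81 ± 0.25 (edgeR adjusted p = 0.0025, range over the alternatives 0.0021 to 0.815), although neither effect alone passed (-0.87, adjusted p = 0.307, and 0.88, adjusted p = 0.298). The Grm8-like effect was called with mixed clusters kept in the gates (-1.25, edgeR adjusted p = 0.0141), the Drd1-like effect without naloxone library 5 (1.2, 0.0357), and both with no filter on low counts (-0.89, 0.0344, and 0.88, 0.000318). The call of the difference was lost without naloxone library 6 (-1.60, adjusted p = 0.101) and with classes taken from clusters (-0.45, adjusted p = 0.815). Somatostatin interneuron-like nuclei had the highest mean Ndst4 level of the gated classes. Their 4 markers summed to 15.8 to 19.4 CPM in saline and 13.5 to 14.9 CPM in naloxone Grm8-like libraries. In Drd1-like libraries these markers summed to 10.6 to 11.6 CPM with saline and 10.4 to 11.1 CPM with naloxone. Leading genes of an unnamed cluster with a similar Ndst4 level, described below, were not summed. The part of either in the Ndst4 result was not tested.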

How the data were processed

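The files hold the authors' deposited UMI counts per gene and barcode for 6 single-nucleus libraries (10x Chromium GEM-X 3′ kit, per the labels' protocols, about 23000 reads per nucleus). Cell Ranger 9.0.1, Seurat 5.2.1, R 4.4.0 and the build mRatBN7.2 are named in the submitters' processing notes, without their roles. The 36 genes, the gene lists, the gates and the tests were chosen with earlier results of these data known.

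Nuclei with at least 500 genes and at most 5% mitochondrial counts were kept (61609), predicted doublets removed, and 38 clusters formed with scanpy 1.11.5 (Python 3.11.15) from variable genes other than the set. Of these, 18 were named by markers, 13 were not named, and the 6690 nuclei of 7 clusters with markers of several classes were left out of the gates. A nucleus entered a glial, vascular or ependymal class with at least 3 markers of its list (2 for short lists), and an interneuron class with 2. The Grm8-like gate needed 3 markers of its list and the Drd2-like and Casz1-like gates 2. The Drd1-like gate needed a UMI of Drd1, Pdyn, Isl1 or Ebf1. All spiny gates also needed general spiny neuron markers, and every gate allowed few markers of other cell types. The markers Tac1, Chat, Slc18a3, Lhfpl3 and Ccdc153 and the pathway gene B3gat3 were not used here. Raw counts were summed per library and class. Naloxone was tested with edgeR 4.0.16 (R 4.3.3; quasi-likelihood test, TMM factors, filterByExpr, Benjamini-Hochberg over all genes of a fit), and classes with the library as a block; DESeq2 1.42.0 was an alternative. Low-count genes were removed before each fit, so a gene could pass through the class where it is high. Genes were named with per-library values if called in a naloxone fit, or in a class comparison with at least 20 CPM in the higher class, with Chst9 and Chst15 added.

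The test was tried on simulated counts in which 200 genes per run were given a log2 change of 1 up or down. It recovered 85.0% in the all-nuclei naloxone comparison (17363 genes, 8 false calls), 75.0% in Drd1-like (12176, 6) and 59.0% in astrocyte-like nuclei (8870, 4). Between Drd2-like and Drd1-like nuclei it recovered 97.0% (12472, 12), and for the Grm8-like minus Drd1-like term 27.5% (12049, 5). Recovery was counted at an adjusted p under 0.05 alone, without the size that a class call also needs. The same spread beyond counting error was set for every simulated gene, so genes that vary more between libraries were not tried. Floors and shares cover counting error only.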

Additional observations from a re-analysis of the deposited data

Results flagged for a closer look

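The naloxone effect on Ndst4 differed between Grm8-like and Drd1-like nuclei by -1.81 on the log2 scale, by the test of the difference itself. The mean Ndst4 level was 18.7 CPM with saline and 9.68 CPM with naloxone in Grm8-like nuclei, and 9.60 and 17.5 CPM in Drd1-like nuclei, and neither change alone was called at the settings used throughout, although the Grm8-like one was with mixed clusters kept (-1.25, edgeR adjusted p = 0.0141). These levels rest on 225 UMIs over the 6 libraries of Grm8-like nuclei and 453 of Drd1-like nuclei.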

How the results depend on the processing

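No paired analysis was possible because the saline and naloxone libraries share no replicate number. The alternatives were DESeq2, other scaling factors, no filter on low counts, at least 1000 genes per nucleus, doublets kept, classes from clusters, mixed clusters kept (chosen after seeing the data), all classes adjusted together and leaving out each library. Of 754 values of the 58 named gene and class comparison pairs under them, 746 kept their direction and call, 7 kept only the direction, and Hs3st4 between oligodendrocyte precursor-like and oligodendrocyte-like nuclei turned to -0.25 with classes from clusters. The 7 were Hs6st3 (-0.87 without composition factors, -0.94 with doublets kept) and Chst1 (5 settings, among them 0.98 with DESeq2) between astrocyte-like and Drd1-like nuclei. Counting the sparser genes too, 77 pairs were called, and 66 of these were called under every alternative that gave a value; the other 11 are given above or beside the results, except Ndst4 between astrocyte-like and Drd1-like nuclei (-2.95), which stood at -0.9997 with doublets kept and at -1.26 with classes from clusters. Doublets kept also lowered 4 called differences between oligodendrocyte precursor-like and oligodendrocyte-like nuclei by over 1.5 times, to 1.29 for Hs3st4, 1.61 for Hs6st3, 1.87 for Chst9 and 1.66 for Ndst4, and Hs6st3 between astrocyte-like and oligodendrocyte-like nuclei to 1.68. Without naloxone library 6, the sparse Hs3st2 moved from -2.06 to -3.22 between astrocyte-like and Drd1-like nuclei. The count of the set's genes called in each class comparison stayed within 1.5 times. The naloxone counts did not. Over all nuclei the count of 0 ranged from 0 to 2 on leaving out a library, with 2 without naloxone library 5. Within classes the count of 1 became 0 with DESeq2, 0 with doublets kept, 0 with all classes adjusted together and 13 with no filter on low counts, and ranged from 0 to 5 on leaving out a library, with 5 without naloxone library 5; with mixed clusters kept the 1 call was another one, Ndst4 in Grm8-like nuclei. The count of 1 class by treatment term became 2 with classes from clusters and ranged from 0 to 3 on leaving out a library (0 without naloxone library 6, 3 without naloxone library 5); these terms were refitted only with other scaling factors, with classes from clusters and without each library. Shares of all genes called in the naloxone fits and terms under these settings are not given here, and the cause of the changed counts was not tested. In simulated counts with changes of 1 on the log2 scale, 59.0% were recovered in the naloxone comparison of astrocyte-like nuclei and 27.5% for the Grm8-like minus Drd1-like term; the smaller classes were not simulated.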

Other observations

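Hs6st3 had its highest level outside the gated classes, in a cluster of 161 nuclei led by Nwd2 and Reln that no marker list named. Its level there was 10097, 8212 and 10603 CPM in saline libraries 1 to 3 and 8337, 7303 and 10508 CPM in naloxone libraries 4 to 6 (9177 ± 1400, with at least 18 nuclei in each library). A second cluster, led by Lypd6b and Tafa4 (1763 nuclei), had 1698 ± 144 CPM of Hs6st3 and 751 CPM of Ndst4. Hs3st5 reached 297 CPM in a cluster led by Adamtsl1 and Drd3.

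Naloxone library 5 had the highest Chst1 level in 7 of the 8 classes with at least 50 UMIs, and over all nuclei it had 43.4 CPM, against 16.5 to 28.9 CPM in the other 5 libraries, 1.89 times their median. In Drd1-like nuclei the values were 18.2, 30.7 and 26.6 CPM with saline and 36.4, 55.6 and 15.6 CPM with naloxone. Among 27 genes of the set with enough UMIs, the next was Ndst2, highest in the same library in 6 of 9 classes, with 1.23 times the median of the others over all nuclei.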
